A study of Saccharomyces cerevisiae with 12 samples.

Results

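Calcineurin is a calcium- and calmodulin-activated protein phosphatase, and this account follows 10 yeast genes of its pathway and of calcium transport: CNA1, CMP2, CNB1, CRZ1, RCN1, RCN2, PMC1, PMR1, VCX1 and CCH1. The genes were chosen by name, with earlier results of these data known. Each was found once among the 7127 rows with yeast gene identifiers (SGD). All 10 passed the filter on low counts and were among the 6127 genes tested. RNA was sequenced from the haploid Saccharomyces cerevisiae strain BY4742, labelled wild type, in 12 libraries of 3 biological replicates per medium. The media were 2% glucose with 7 mM potassium chloride (called the full medium here), 2% glucose with 1 mM (low potassium), 0.5% glucose with 7 mM (low glucose) and 0.5% glucose with 1 mM (doubly restricted). The study asked whether restricting potassium resembles restricting glucose in its effect on chronological lifespan. The strain background and the batch label were the same in all 12 libraries, and the growth stage at harvest was not stated. Each library came from a whole culture, so less transcript per cell and fewer cells with the transcript cannot be told apart.

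When cytosolic calcium rises, calmodulin activates calcineurin, which removes phosphate from the transcription factor Crz1, and Crz1 then enters the nucleus and induces genes of ion transport and cell wall synthesis. Calcium enters yeast through the plasma membrane channel Cch1 and is cleared into the vacuole by the pump Pmc1 and the exchanger Vcx1, and into the Golgi by the pump Pmr1. In textbook accounts PMC1, PMR1 and RCN1 are transcriptional targets of Crz1, and calcineurin restrains Vcx1.

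The sites that Crz1 can bind, called calcineurin-dependent response elements (CDRE), were searched for in the 500 bases before each start codon, on both strands, as GNGGCTCA or GNGGCGCA. The stress response element (STRE, AGGGG), which the stress factors Msn2 and Msn4 bind, was searched for in the same windows. A CDRE word stood before 223 of 5989 genes searched (3.72%) and before 1 of the 10 genes, PMC1. The stretch from 223 to 116 bases before the PMC1 start codon (chrVII:485698-485805, plus strand, R64, read from the RefSeq genome) is shown because it holds both kinds of match; capitals mark the STRE at 199 bases and the reverse complement of a CDRE at 136 bases upstream, each counted from the last base of the match.
PMC1 upstream: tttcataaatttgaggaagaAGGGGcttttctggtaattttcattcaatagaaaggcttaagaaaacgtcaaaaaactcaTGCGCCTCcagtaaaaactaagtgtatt

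The same CDRE word, on either strand, stood before MEP1 and GYP7, from the list of 11 other genes reported to need Crz1. The rest of that list held neither CDRE word in the window. Sites further than 500 bases upstream were not searched for, so a missing match does not show that a gene lacks a site. The MEP1 and GYP7 sites are given for comparison with PMC1, each read along its gene's coding strand with the match in capitals: 136 bases upstream in PMC1 (chrVII:485765-485798, plus strand), 418 in MEP1 (chrVII:733332-733365, minus strand, where the match overlaps an STRE) and 141 in GYP7 (chrIV:36605-36638, minus strand).
PMC1: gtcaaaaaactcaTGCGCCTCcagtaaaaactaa
MEP1: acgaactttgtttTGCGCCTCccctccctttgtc
GYP7: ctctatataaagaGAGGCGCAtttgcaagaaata

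STRE words stood before 2041 of the 5989 genes (34.1%) and before 5 of the 10: CMP2, CRZ1, RCN2, PMC1 and CCH1. The nearest sites of CMP2 (chrXIII:159958-159988), CRZ1 (chrXIV:579281-579311), RCN2 (chrXV:754998-755028) and CCH1 (chrVII:924472-924502), all read on the plus strand, are shown because these genes changed between media. The matches lie 205, 282, 313 and 207 bases before the start codons. VCX1, PMR1 and CNA1, which also changed, held neither word in this window. All the matches shown lie outside other annotated genes, though the flank of the RCN2 site reaches into STE13. These matches are letters in a window and were not tested for binding.
CMP2: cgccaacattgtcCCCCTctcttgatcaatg
CRZ1: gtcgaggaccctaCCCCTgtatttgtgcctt
RCN2: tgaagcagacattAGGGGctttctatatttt
CCH1: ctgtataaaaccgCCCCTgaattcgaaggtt

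The libraries held 5634205 to 7036345 counts at yeast rows, and between 129 and 5994 counts for each of the 10 genes. Levels are CPM, each gene's share of the yeast counts in its library after TMM scaling, a method that sets the typical gene equal between libraries. In low glucose, replicate 2 stood apart: 1718 of 6127 genes (28.0%) lay over 2-fold from the mean of its partners, against 1.04% to 8.36% in the other 11 libraries. Ribosomal RNA took 0.794% to 2.62% of the yeast counts. LEU2, LYS2 and URA3, deleted in this strain, and the a-mating-type genes MFA1 and MFA2 had 0 counts in every library. The alpha-type gene STE3 stood at 23.2 to 206 CPM, while the a-type genes STE2 and BAR1 stood at 7.18 to 17.7 and 4.1 to 12 CPM, and HIS3, partly deleted in this strain, at 3.7 to 177 CPM.

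Compared per kilobase of coding length, the 10 genes spanned a wide range of levels. RCN2 was highest at a mean of 472 CPM per kb over the 4 media, followed by VCX1 at 258, and each gene overlapped its neighbour in this order over the 12 libraries except CCH1. PMR1 (113), PMC1 (111.2), CNB1 (104.5) and CMP2 (103) stood close together. CRZ1 (49.4), RCN1 (46.9) and CNA1 (43.6) stood lower, and CCH1 was lowest at 9.43 CPM per kb. RCN2 varied most, with a highest library 8.4-fold above its lowest, then VCX1 at 4.29-fold and CMP2 at 3.32-fold, while CCH1 varied least at 1.47-fold.

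**Figure D1:**
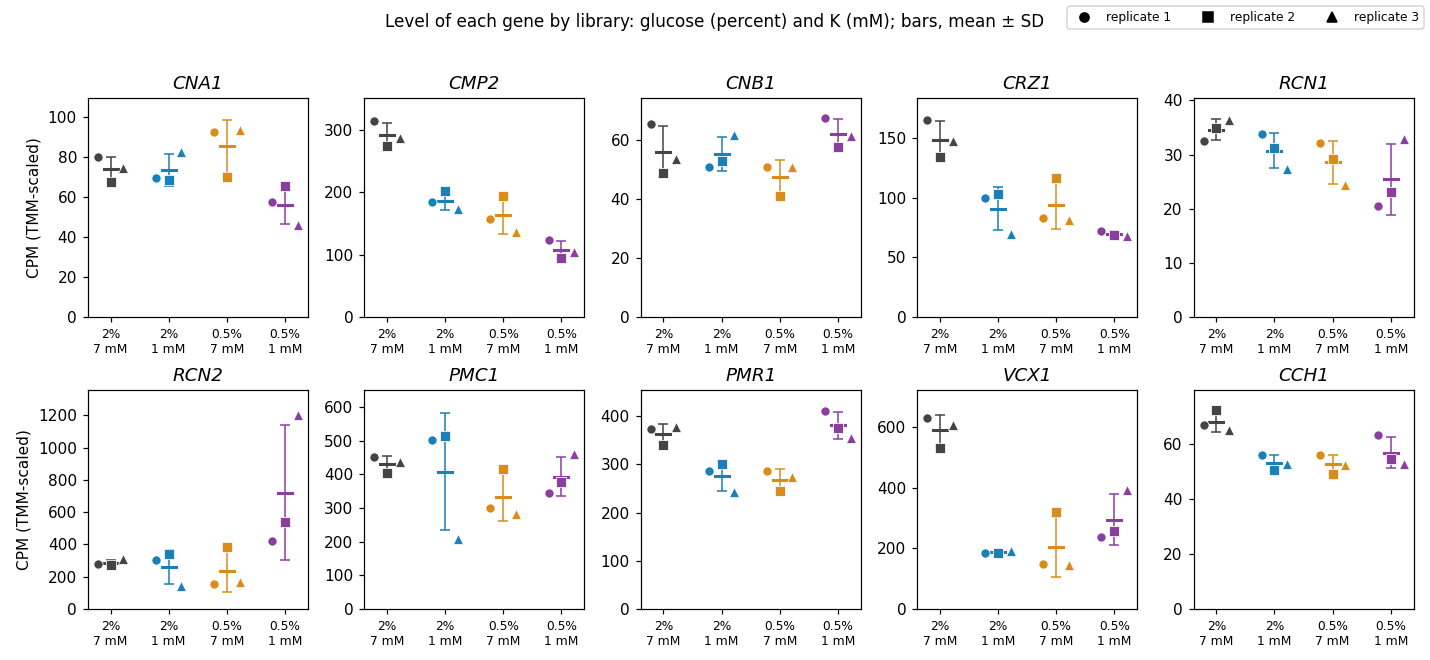
TMM-scaled CPM (vertical axis, starting at 0) of the 10 genes in the 4 media (horizontal axis, glucose percent and potassium mM); each symbol is 1 library, thick lines are means and bars are SD of 3 libraries. VCX1 lies between 532 and 629 CPM in the full medium and no higher than 391 CPM in any other, and CMP2 is lowest in the doubly restricted medium, at 94.5 to 123 CPM.

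Restricting either nutrient alone lowered several of the genes and raised none. Low potassium against the full medium lowered 4 of 10 (VCX1, CMP2, CRZ1 and CCH1), where 28.1% of all genes tested were called (13.1% higher, 15.0% lower) at an edgeR quasi-likelihood adjusted p under 0.05. Low glucose against the full medium lowered the same 4 and PMR1, 5 of 10, where 33.9% of all genes were called (16.9% higher, 17.0% lower). These comparisons share the full-medium libraries. With TMM scaling, the median log2 fold change of the 10 was -0.27 in low potassium and -0.38 in low glucose, beside -0.002 and 0.03 over all genes. Without full-medium replicate 1 the members called fell to 1 (VCX1) and 2, and without low-potassium replicate 3 the first count was 2. The second was 2 without low-glucose replicate 3, and 3 without any 1 of full-medium replicates 2 and 3, low-glucose replicate 1, low-potassium replicate 1 or doubly restricted replicate 2.

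Adding the other restriction gave changes in both directions. At 0.5% glucose, lowering potassium raised RCN2 and PMR1 and lowered CMP2 and CNA1, 4 of 10 against 48.4% of all genes (23.5% higher, 24.9% lower), a share near the background. At 1 mM potassium, lowering glucose raised RCN2 and PMR1 and lowered CMP2, 3 of 10 against 34.8% of all genes (16.3% higher, 18.4% lower), also near the background. The doubly restricted medium against the full medium held CMP2, CRZ1 and VCX1 lower and RCN2 higher, 4 of 10 against 47.4% (22.8% higher, 24.5% lower). Fitting only the compared groups left 0 of the 10 called for potassium at 0.5% glucose, and 2 of the 5 called for low glucose. Without low-glucose replicate 2, the library that stood apart, the members called for glucose at 1 mM potassium numbered 6, and without low-potassium replicate 1 they numbered 1.

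The single restrictions, set against each other, left none of the 10 called, where 43.9% of all genes were called (20.9% higher, 23.1% lower). No member reached an unadjusted p under 0.05 in edgeR there, DESeq2 also called 0, and CNB1 had the smallest adjusted p at 0.275. The 95% intervals of these differences ran from -0.15 to 0.55 on the log2 scale for CMP2, from -0.77 to 0.52 for VCX1 and from -0.84 to 1.14 for RCN2. Without replicate 2 of low glucose, 1 of the 10 was called, CMP2, higher in low potassium. The interaction, which tests whether the potassium effect differed between glucose levels, was called for VCX1 and PMR1, 2 of 10 against 29.9% of all genes (14.8% higher, 15.2% lower), and without low-glucose replicate 2 for 5.

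The split of all calls depended on the scaling. For low potassium, 46.7% of the genes called were higher with TMM, 67.8% with upper-quartile scaling, 67.1% with library totals and 73.0% with scaling by the WBGene rows, a second set of rows in the table that carry no yeast identifier. For low glucose these shares were 49.8%, 61.8%, 57.1% and 65.4%. For potassium at 0.5% glucose the share was 48.6% with TMM and 26.4% with WBGene rows, and for glucose at 1 mM potassium it was 47.0%, 36.4%, 30.7% and 20.7% in the first order. For the interaction it was 49.3%, 33.0%, 30.5% and 17.2%. Between the single restrictions it was 47.5% with TMM and 58.6% with library totals. Changes of the 10 genes are given on the TMM scale, on which the tested genes had medians between -0.02 and 0.03. With library totals or WBGene rows, VCX1 alone was called for low potassium. The median of the 10 for low potassium was -0.08 with upper-quartile scaling, -0.03 with library totals and 0.04 with WBGene rows. Over all genes it was 0.19, 0.24 and 0.30. For low glucose the median of the 10 was -0.26, -0.32 and -0.21, beside 0.15, 0.10 and 0.23 over all genes.

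**Figure D2:**
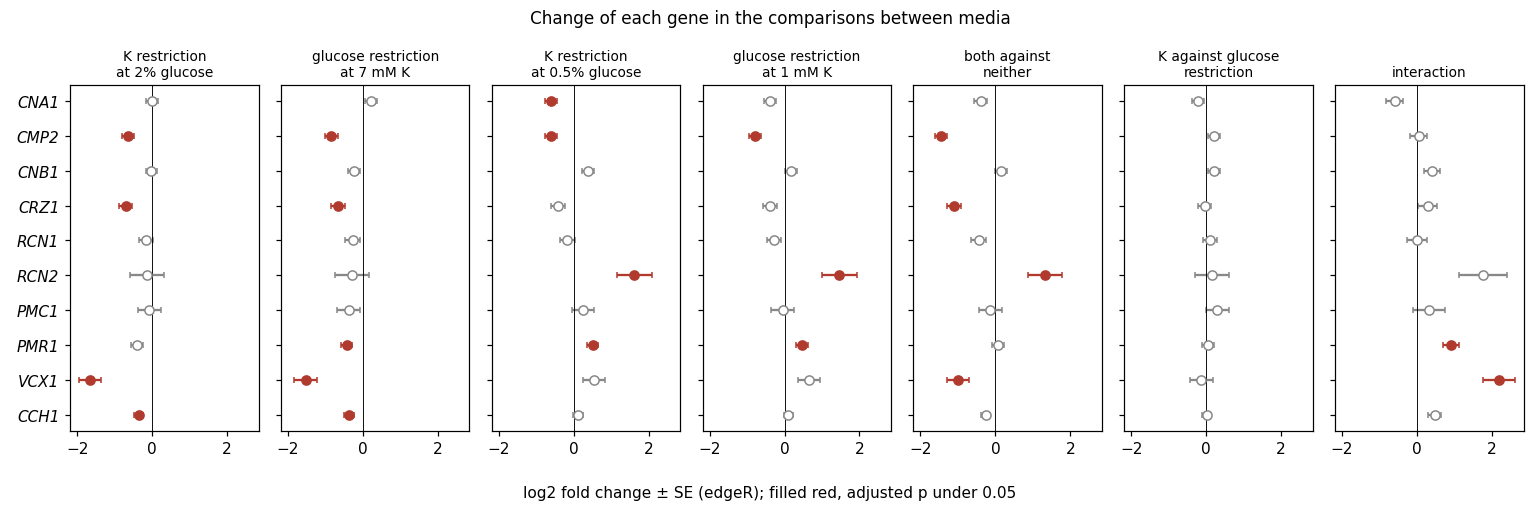
Log2 fold change from edgeR (horizontal axis) of the 10 genes (vertical axis) in each of the 7 comparisons; bars are standard errors and filled red points have an adjusted p under 0.05. The single restrictions hold called points on the lower side alone, from -1.66 for VCX1 to -0.36 for CCH1, and VCX1 and PMR1 stand to the right of 0 in the interaction.

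Of the calcineurin catalytic subunits, CMP2 fell with each restriction, and CNA1 was called in a single comparison. CMP2 (YML057W; chromosome XIII, 160180 to 161994, plus strand) encodes 1 of the catalytic A subunits. Its levels were 313, 274 and 286 CPM in the full medium and 183, 202 and 173 CPM in low potassium. They were 157, 194 and 137 CPM in low glucose and 123, 94.5 and 104 CPM in the doubly restricted medium. No library of a restricted medium reached the full medium, and the doubly restricted libraries lay below all others, while low potassium and low glucose overlapped. The log2 fold change (± SE) was -0.64 ± 0.16 for low potassium (adjusted p = 0.0111) and -0.84 ± 0.16 for low glucose (adjusted p = 0.00189). It was -0.60 ± 0.16 for potassium at 0.5% glucose (adjusted p = 0.00923) and -0.80 ± 0.16 for glucose at 1 mM potassium (adjusted p = 0.00282). With both restrictions CMP2 was 2.72-fold lower than with neither (-1.44 ± 0.16, adjusted p = 3.44e-05). The interaction was 0.04 ± 0.23, with a 95% interval of -0.46 to 0.54. Leaving out full-medium replicate 1 lost the call for low potassium (-0.59), and the other 4 calls stood without any single library.

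CNA1 (YLR433C; chromosome XII, 1004347 to 1006008, minus strand) encodes the other catalytic subunit. It stood at 80.0, 67.5 and 74.6 CPM in the full medium, at 69.7, 68.7 and 82.7 CPM in low potassium and at 92.8, 70.4 and 93.7 CPM in low glucose. In the doubly restricted medium it stood at 57.4, 65.4 and 45.9 CPM, below every other library. CNA1 was lower there than in low glucose (-0.61 ± 0.16, adjusted p = 0.0103), its only call in edgeR with all libraries and TMM. The glucose effect at 1 mM potassium was not called at -0.39 ± 0.16 (adjusted p = 0.0887), but was without low-glucose replicate 2 (-0.40), without doubly restricted replicate 2 (-0.55), and with upper-quartile or WBGene scaling (-0.51 and -0.81). The same 2 leave-outs also called CNA1 lower with both restrictions (-0.38 and -0.54) and in the interaction (-0.73 and -0.76), and the interaction was called with the same 2 scalings. Per kilobase, CMP2 was 3.51 to 3.72 times CNA1 in the full medium. This ratio, which does not depend on scaling, was 1.92 to 2.69 in low potassium, 1.34 to 2.53 in low glucose and 1.32 to 2.07 in the doubly restricted medium, so no restricted library reached the full medium.

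CNB1 (YKL190W; chromosome XI, 82947 to 83550, plus strand, with an intron) encodes the regulatory B subunit that both catalytic subunits need. Its levels were 65.5, 48.8 and 53.7 CPM in the full medium, 50.9, 52.9 and 61.6 in low potassium, 51.0, 40.9 and 50.8 in low glucose and 67.3, 57.6 and 61.5 in the doubly restricted medium. The doubly restricted libraries lay above those of low glucose, but the difference missed the threshold (0.38 ± 0.15, adjusted p = 0.0568). DESeq2 called this difference (0.38, adjusted p = 0.0412). CNB1 was called in none of the 7 comparisons by edgeR, in the fit to all libraries or in any alternative.

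CRZ1, the transcription factor that calcineurin activates, was highest in the full medium. CRZ1 (YNL027W; chromosome XIV, 579580 to 581616, plus strand) stood at 165, 134 and 148 CPM there and at 99.5, 103 and 69.9 CPM in low potassium. It stood at 83.1, 116 and 81.2 CPM in low glucose and at 72.2, 68.5 and 68.1 CPM in the doubly restricted medium. All 9 restricted libraries lay below the full medium. The log2 fold change was -0.71 ± 0.18 for low potassium (adjusted p = 0.0125), -0.67 ± 0.18 for low glucose (adjusted p = 0.0134) and -1.10 ± 0.18 for both (adjusted p = 0.000502), a 2.14-fold lower level. The second restriction on top of the first missed the threshold from either side, at -0.42 ± 0.18 (adjusted p = 0.0721) for potassium and -0.39 ± 0.18 (adjusted p = 0.122) for glucose. The potassium step was called with upper-quartile scaling (-0.47), library totals (-0.47) or WBGene scaling (-0.69), and without low-potassium replicate 3 (-0.46) or low-glucose replicate 1 (-0.55) or 3 (-0.56), while without low-glucose replicate 2 it was -0.23 and not called. The glucose step was called with the same 3 scalings (-0.50, -0.63 and -0.80) and without low-potassium replicate 3 (-0.55) or low-glucose replicate 2 (-0.39). The call for low potassium was lost without low-potassium replicate 3 (-0.57) or full-medium replicate 1 (-0.63). The call for low glucose was lost without full-medium replicate 1 (-0.58) or low-glucose replicate 3 (-0.56), and the call for both restrictions stood without any single library. The low-potassium call was also lost with library totals or WBGene scaling, and the low-glucose call with WBGene scaling or the compared groups alone.

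Of the calcineurin modulators, RCN2 was higher in the doubly restricted medium than in any other, and RCN1 was called in no comparison by edgeR with all libraries and TMM. Rcn1 binds calcineurin and can inhibit it, and Rcn2 is its paralog. RCN2 (YOR220W; chromosome XV, 755328 to 756125, plus strand) stood at 278, 275 and 310 CPM in the full medium and at 303, 338 and 143 CPM in low potassium. It stood at 156, 383 and 168 CPM in low glucose and at 424, 541 and 1200 CPM in the doubly restricted medium. All 3 doubly restricted libraries lay above the other 9, and replicate 3 was 2.49 times the mean of its partners. RCN2 was 3.06-fold higher in the doubly restricted medium than in low glucose (1.62 ± 0.46, adjusted p = 0.0132), 2.76-fold higher than in low potassium (1.46 ± 0.46, adjusted p = 0.028) and 2.51-fold higher than in the full medium (1.33 ± 0.46, adjusted p = 0.0323). The interaction missed the threshold (1.75 ± 0.64, adjusted p = 0.0591), but was called by DESeq2 (1.77) and with library totals (1.46).

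These 3 calls of RCN2 rested in part on doubly restricted replicate 3: without it the values were 1.0 against low glucose (adjusted p = 0.0808), 0.88 against low potassium (adjusted p = 0.161) and 0.74 against the full medium (adjusted p = 0.184). The call against low glucose was also lost without low-glucose replicate 3 (1.36), that against low potassium without low-potassium replicate 1 (1.55) or 3 (1.15), and that against the full medium without any 1 full-medium library (1.27 to 1.38). Without low-glucose replicate 2, the rise over low glucose was 2.17 (adjusted p = 0.00127) and the interaction was called at 2.29 (adjusted p = 0.00571), as it was without doubly restricted replicate 1 (1.97).

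RCN1 (YKL159C; chromosome XI, 153816 to 154451, minus strand) held 32.6, 35.0 and 36.3 CPM in the full medium, 33.7, 31.1 and 27.3 in low potassium, 32.1, 29.2 and 24.4 in low glucose and 20.5, 23.0 and 32.8 in the doubly restricted medium. The full medium lay above low glucose and overlapped the others, and the test gave -0.45 ± 0.19 for both restrictions (adjusted p = 0.0749). Without doubly restricted replicate 3, its highest library there, that value was -0.68 (adjusted p = 0.0101). It was also called by DESeq2 (-0.46, adjusted p = 0.0477), with the compared groups alone (-0.48), and without low-glucose replicate 2 (-0.44) or 3 (-0.48). The glucose effect at 1 mM potassium, -0.28 ± 0.19 (adjusted p = 0.301), was called with library totals (-0.55) or WBGene scaling (-0.73) and without doubly restricted replicate 3 (-0.51). Per kilobase, RCN2 was 6.28 to 6.80 times RCN1 in the full medium and 16.5 to 29.1 times RCN1 in the doubly restricted medium. Low potassium (4.17 to 8.66) and low glucose (3.87 to 10.4) lay on both sides of the full medium.

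Of the vacuolar transporters, the exchanger VCX1 fell about 3-fold with either restriction, and no change of the pump PMC1 was called. VCX1 (YDL128W; chromosome IV, 232652 to 233887, plus strand) exchanges protons for calcium at the vacuole. It stood at 629, 532 and 606 CPM in the full medium and at 183, 184 and 192 CPM in low potassium. It stood at 147, 318 and 146 CPM in low glucose and at 236, 257 and 391 CPM in the doubly restricted medium. The full medium lay above all 9 other libraries, and low glucose overlapped both other restricted media. VCX1 was 3.16-fold lower in low potassium (-1.66 ± 0.30, adjusted p = 0.00192), 2.89-fold lower in low glucose (-1.53 ± 0.30, adjusted p = 0.00229) and 2.0-fold lower with both (-1.0 ± 0.30, adjusted p = 0.0165).

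With all libraries, no change of VCX1 was called when the second restriction was added. Its potassium effect at 0.5% glucose was 0.53 ± 0.30 (adjusted p = 0.159) and its glucose effect at 1 mM potassium was 0.66 ± 0.30 (adjusted p = 0.107). The potassium effect differed between the glucose levels by 2.19 ± 0.42 on the log2 scale (adjusted p = 0.00274). The calls for each single restriction and for the interaction stood without any 1 library. That for both restrictions was lost without doubly restricted replicate 1 (-0.90) or 2 (-0.94). Low-glucose replicate 2 was 2.17 times its partners, and without it the low-glucose value was -2.0 (adjusted p = 4.74e-06) and the interaction 2.66. Without that library VCX1 was also called higher on adding the second restriction, by 1.02 for potassium at 0.5% glucose (adjusted p = 0.000671) and by 0.66 for glucose at 1 mM potassium (adjusted p = 0.00604), and the latter was called with the compared groups alone (adjusted p = 0.024).

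PMC1 (YGL006W; chromosome VII, 485921 to 489442, plus strand) encodes the vacuolar calcium pump. Its levels were 453, 405 and 437 CPM in the full medium, 504, 515 and 207 in low potassium, 300, 415 and 283 in low glucose and 345, 377 and 460 in the doubly restricted medium. Replicate 3 of low potassium was 0.407 times the mean of its partners, and the groups overlapped. PMC1 was called in no comparison, and its intervals were wide, at -0.74 to 0.59 on the log2 scale for low potassium. Per kilobase, VCX1 was 3.74 to 3.96 times PMC1 in the full medium, and 1.03, 1.02 and 2.64 times in low potassium. It was 1.4 to 2.18 times in low glucose and 1.94 to 2.42 times in the doubly restricted medium, so all 9 restricted libraries lay below the full medium.

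**Figure D3:**
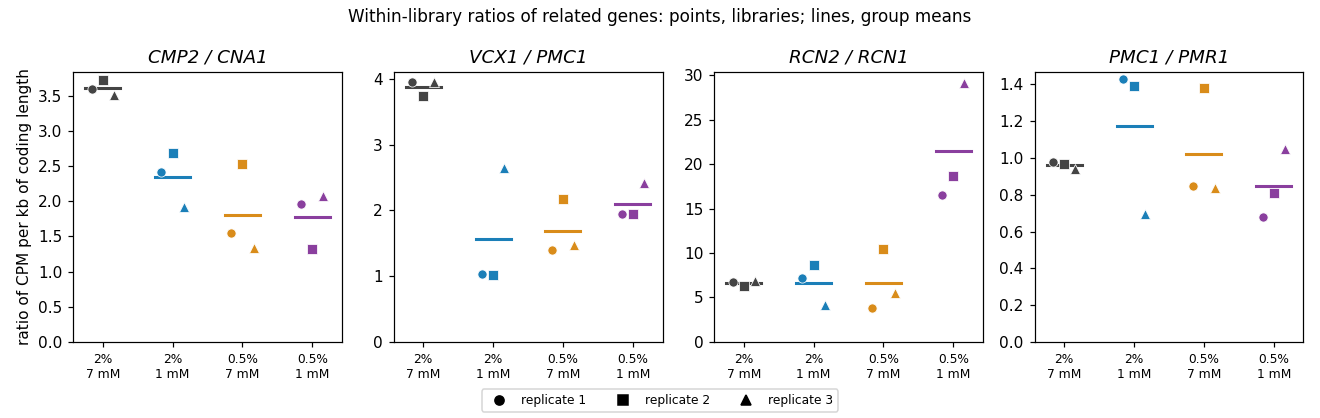
Ratio of CPM per kb of coding length (vertical axis, starting at 0) of 4 pairs of genes within each library, by medium (horizontal axis); symbols are libraries and lines are group means. CMP2 over CNA1 and VCX1 over PMC1 are highest in the full medium (3.51 to 3.72 and 3.74 to 3.96), and RCN2 over RCN1 is highest in the doubly restricted medium (16.5 to 29.1).

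The Golgi pump PMR1 stood lower in every library with 1 restriction than in any library with none or both. PMR1 (YGL167C; chromosome VII, 187616 to 190468, minus strand) supplies calcium and manganese to the Golgi. It stood at 374, 340 and 376 CPM in the full medium and at 286, 301 and 242 CPM in low potassium. It stood at 286, 244 and 274 CPM in low glucose and at 411, 376 and 354 CPM in the doubly restricted medium. The full and doubly restricted media overlapped, and the single restrictions overlapped each other. Low glucose lowered PMR1 (-0.44 ± 0.16, adjusted p = 0.0464), and the low-potassium value missed the threshold (-0.40 ± 0.16, adjusted p = 0.0753). The low-potassium value was called by DESeq2 (-0.43, adjusted p = 0.00196), with the compared groups alone (-0.37, adjusted p = 0.0101), and without low-glucose replicate 2 (-0.38, adjusted p = 0.0207) or doubly restricted replicate 3 (-0.39, adjusted p = 0.0497). The doubly restricted medium was 1.42-fold above low glucose (0.50 ± 0.16, adjusted p = 0.0186) and 1.38-fold above low potassium (0.46 ± 0.16, adjusted p = 0.0369). The difference between both restrictions and neither was 0.07 ± 0.16, with a 95% interval of -0.27 to 0.40.

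The interaction for PMR1 was 0.90 ± 0.22 (adjusted p = 0.00943) and stood without any 1 library. It was lost when libraries were scaled by their totals (0.59) or by the WBGene rows (0.29), scalings that moved the median interaction of all genes to -0.34 and -0.63. The call for low glucose was lost without any 1 full-medium library, low-potassium replicate 1 or 2, low-glucose replicate 1 or 3, or doubly restricted replicate 2 (-0.47 to -0.41). That over low potassium was lost without any 1 library of the full medium or low potassium, or doubly restricted replicate 1 or 2 (0.37 to 0.49), and that over low glucose without doubly restricted replicate 1 (0.41). Library totals or WBGene scaling lost each of these pairwise calls. Upper-quartile scaling or a replicate block lost the call for low glucose and the rise over low potassium. The compared groups alone lost the call for low glucose and the rise over low glucose. PMR1 overlaps the annotated gene HUR1, which stood at 12.4 to 31.4 CPM, and the strand setting of the counting is not given in the sources used here. Per kilobase, PMC1 was 0.941 to 0.98 times PMR1 in the full medium, with 0.68 to 1.43 over the 9 other libraries.

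CCH1 (YGR217W; chromosome VII, 924696 to 930815, plus strand), the pore subunit of the plasma membrane calcium channel, was slightly lower with each single restriction. It stood at 66.8, 72.5 and 65.3 CPM in the full medium, at 56.2, 50.5 and 52.8 in low potassium and at 56.2, 49.3 and 52.5 in low glucose. In the doubly restricted medium it stood at 63.4, 54.5 and 52.9 CPM, which overlapped both single restrictions. All restricted libraries lay below the full medium, at -0.36 ± 0.12 for low potassium (adjusted p = 0.0451) and -0.37 ± 0.12 for low glucose (adjusted p = 0.0341). With both restrictions the value missed the threshold (-0.26 ± 0.12, adjusted p = 0.0977) but passed it without doubly restricted replicate 1 (-0.38). The interaction was 0.47 ± 0.17 (adjusted p = 0.0578 in edgeR). It was called with relative log expression scaling in edgeR (0.50), with DESeq2 (0.51) and without low-glucose replicate 2 (0.42), and was -0.13 with WBGene scaling. The low-potassium call was lost without any 1 of the 6 compared libraries, low-glucose replicate 1 or 3, or doubly restricted replicate 2 (-0.39 to -0.30). The low-glucose call was lost without any 1 full-medium library, low-glucose replicate 1 or 3, low-potassium replicate 1, or doubly restricted replicate 2 (-0.40 to -0.31). Both calls were also lost with upper-quartile scaling, library totals, WBGene scaling or a replicate block. The low-potassium call was lost with no count filter as well, and the low-glucose call with the compared groups alone.

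Within media, a few libraries carried most of the spread of these genes. Replicate 3 of low potassium held RCN2 at 0.446 times, PMC1 at 0.407 times and CRZ1 at 0.689 times the mean of its partners, with VCX1 at 1.05 times. Replicate 2 of low glucose held RCN2 at 2.36 times, VCX1 at 2.17 times, PMC1 at 1.43 times and CRZ1 at 1.41 times its partners. Replicate 3 of the doubly restricted medium held RCN2 at 2.49 times, VCX1 at 1.59 times and PMC1 at 1.27 times its partners. RCN2 and PMC1 lay on the same side of their partners in each of these libraries, and VCX1 did so in the 2 libraries at 0.5% glucose. These libraries and genes were picked for their deviations, so this does not show that the genes vary together. In doubly restricted replicate 3, CRZ1 stood at 0.968 times and RCN1 at 1.51 times the mean of its partners. In the full medium no member lay further than 0.35 on the log2 scale from its partners.

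**Figure D4:**
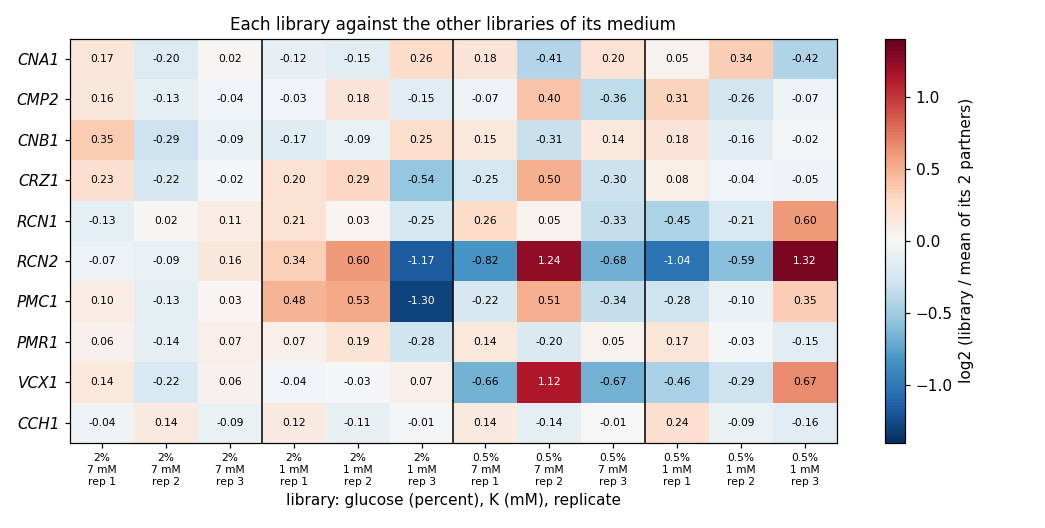
Log2 ratio of each library to the mean of its 2 partners in the same medium (colour and printed value), for the 10 genes (vertical axis) in the 12 libraries (horizontal axis, grouped by medium). RCN2 stands at -1.17 in low-potassium replicate 3, 1.24 in low-glucose replicate 2 and 1.32 in doubly restricted replicate 3, and PMC1 at -1.3, 0.51 and 0.35 in the same libraries.

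In each comparison, most of the 23 other genes of calcium transport and calcineurin signalling did not pass the test, and those called moved in both directions. The genes called differed between comparisons. In low potassium 3 were higher and 1 lower (17.4% of the list, beside 28.1% of all genes; median log2 0.05 against -0.002). FPR1, the prolyl isomerase through which the drug FK506 blocks calcineurin, rose from 117 ± 3.09 to 221 ± 25.9 CPM (SD, n = 3; log2 0.92 ± 0.15). The vacuolar calcium release channel gene YVC1 rose from 26.8 ± 5.29 to 54.5 ± 8.89 CPM, and ECM7, linked to the calcium channel, fell from 94.2 ± 9.58 to 46.9 ± 6.76 CPM. In low glucose 5 were higher and 1 lower (26.1% beside 33.9%; median 0.19 against 0.03). There FIG1, a regulator of calcium entry in mating, rose from 1.41 ± 0.23 to 6.44 ± 0.84 CPM, the phospholipase C gene PLC1 from 110 ± 2.01 to 262 ± 104 CPM and CMK1 from 110 ± 9.53 to 197 ± 39.7 CPM.

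CMK1, a calmodulin-dependent protein kinase, rose with each single restriction and fell when the second was added. It stood at 171 ± 34.6 CPM in low potassium and 84.5 ± 11.3 CPM in the doubly restricted medium. Its changes were 0.64 ± 0.19 for low potassium (adjusted p = 0.0263), 0.85 ± 0.19 for low glucose (adjusted p = 0.00509) and -1.22 ± 0.19 for potassium at 0.5% glucose (adjusted p = 0.000378). Against the full medium, both restrictions gave -0.37 ± 0.19, which was not called (adjusted p = 0.124). The interaction was -1.86 ± 0.27 (adjusted p = 0.0005). The calmodulin gene CMD1 is outside the rule for named genes and is given because calmodulin activates calcineurin. Its means were 140 CPM in the full medium, 131 in low potassium, 173 in low glucose and 169 in the doubly restricted medium. It was called higher for glucose at 1 mM potassium, and lower in low potassium than in low glucose.

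Potassium restriction at 0.5% glucose raised 5 of the 23 and lowered 4 (39.1% beside 48.4%; median 0.14 against -0.02). SPF1, a P-type ATPase of the endoplasmic reticulum, rose from 138 ± 26.2 to 301 ± 16 CPM (log2 1.13 ± 0.16, adjusted p = 0.000199). GDT1, a Golgi calcium and manganese transporter, rose by 1.66 ± 0.35 on the log2 scale (adjusted p = 0.00244). Glucose restriction at 1 mM potassium raised 6 and lowered 2 (34.8% beside 34.8%; median 0.33 against -0.02), with CMK1 lower and FRT2 and CSG2 higher by 1.3 ± 0.29 and 1.05 ± 0.24. Both restrictions against neither raised 6 and lowered 2 (34.8% beside 47.4%; median 0.38 against 0.03), with FPR1, SPF1 and SLM2 higher by 1.22 ± 0.16, 0.72 ± 0.16 and 0.95 ± 0.22. Low potassium against low glucose gave 2 higher and 5 lower (30.4% beside 43.9%; median -0.04 against -0.01), with FIG1 at -2.44 ± 0.37, PLC1 at -1.16 ± 0.23 and ECM7 at -1.03 ± 0.21. The interaction was called for 6 of the 23, 4 higher and 2 lower (26.1% beside 29.9%; median 0.06 against -0.02), with SPF1 at 0.95 ± 0.23 and CSG2 at 1.26 ± 0.35 beside CMK1. Without low-glucose replicate 2 these counts for the 23 genes were 9 for low potassium, 14 for glucose at 1 mM potassium, 16 for both restrictions and 11 for the interaction, and without low-glucose replicate 1 the count for low glucose was 10. Leaving out other single libraries took the counts as low as 3 for glucose at 1 mM potassium (low-potassium replicate 1 or 2), 4 for both restrictions (full-medium replicate 3) and 3 for the interaction (full-medium replicate 1 or 3, low-potassium replicate 2, doubly restricted replicate 1 or 2).

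The other 11 genes reported to need Crz1 for induction, 1 of which (CMK2) is also among the 23, did not move as a block. In low potassium 5 were higher and none lower (45.5% beside 28.1% of all genes; median 0.30). SCW10, a cell wall protein gene, rose from 32.5 ± 3.68 to 371 ± 18.1 CPM, and the ammonium permease gene MEP1 rose by 1.09 ± 0.22 on the log2 scale (adjusted p = 0.00359). PHO89, a sodium and phosphate cotransporter gene, rose by 6.64 ± 0.79 (adjusted p = 0.000106). In low glucose 2 were higher (PHO89 by 4.82 ± 0.72 and ENA1, a sodium pump gene, by 1.78 ± 0.28) and 5 lower, SCW10 by -1.13 ± 0.18 among them (63.6% beside 33.9%; median -0.74). PHO89 stood at 678, 54.6 and 357 CPM in the low-glucose libraries, above the 11.3 to 15.8 CPM of the full medium, so the size of its rise was uncertain. ENA1 stood at 1258, 630 and 1252 CPM in low glucose. It has near-identical neighbours, so its counts are uncertain.

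At 0.5% glucose, potassium restriction raised 5 of the 11 and lowered 2 (63.6% beside 48.4%; median 0.91). SCW10 rose from 14.9 ± 0.62 to 651 ± 116 CPM, the cell wall transglycosylase gene CRH1 by 2.95 ± 0.29 on the log2 scale and the chitin synthase gene CHS1 by 2.08 ± 0.41. Glucose restriction at 1 mM potassium raised SCW10 (0.81 ± 0.17) and lowered MEP1 (-1.38 ± 0.22) and the yapsin protease gene YPS1 (-1.56 ± 0.30), 27.3% beside 34.8%, with a median of -0.001. Both restrictions against neither gave 4 higher, SCW10 (4.33 ± 0.19) and PHO89 (5.57 ± 0.75) among them, and 1 lower, YPS1 (-2.18 ± 0.30), at 45.5% beside 47.4% and a median of 0.28. Low potassium against low glucose gave 7 higher and 1 lower (72.7% beside 43.9%; median 1.20), led by SCW10 (4.64 ± 0.19), CRH1 (2.69 ± 0.29) and CHS1 (2.08 ± 0.41). The interaction was called for 7, 4 higher and 3 lower (63.6% beside 29.9%; median 0.78), among them SCW10 (1.94 ± 0.24), PHO89 (-5.89 ± 0.94) and MEP1 (-1.79 ± 0.31). The PHO89 interaction drew on low-glucose libraries that ran from 54.6 to 678 CPM. CRZ1 itself was lower than in the full medium in low potassium, in low glucose and with both restrictions. Crz1 activity was not measured, and a link between the CRZ1 transcript and these 11 genes was not tested. The count for low potassium was 3 of 11 without full-medium replicate 1 or 3, that for potassium at 0.5% glucose was 4 without doubly restricted replicate 2, that for glucose at 1 mM potassium was 6 without low-glucose replicate 2, and that between the single restrictions was 5 without low-glucose replicate 3.

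The genes whose log2 CPM pattern over the 12 libraries lay closest to that of CMP2, VCX1 and PMR1, the members called most often, were found by the root mean square difference of centred values. For CMP2 these were RIM13 (0.177), GDE1 (0.181) and GCV1 (0.186), where the median over the 6126 other genes was 0.709. For VCX1 they were SNQ2 (0.137), VRP1 (0.215) and ECM21 (0.224), beside a median of 0.892. For PMR1 they were RET1 (0.134), MRS6 (0.137) and RPT2 (0.146), beside 0.548. A gene with an equal level in all 12 libraries would lie 0.537 from CMP2, 0.74 from VCX1 and 0.249 from PMR1. The measure is in log2 units, describes these libraries alone and was not tested.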

How the data were processed

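The table deposited by the authors held expected counts per gene, all whole numbers, for 12 paired-end libraries; STAR 2.7.1a, RSEM 1.3.3 and build R64 are named in the submitters' processing notes. The strand setting and annotation are not given in the sources used here. Of 46904 rows, 7127 carried SGD and 39777 WBGene identifiers; WBGene rows took 34.0% to 41.6% of counts and were used in a single scaling alternative. Names and coordinates came from the supplied R64 annotation, which held 6444 SGD rows and lacked 683. Counts were filtered (filterByExpr), scaled by TMM and fitted with the quasi-likelihood test of edgeR 4.0.16 in R 4.3.3, with 1 mean per group, 12 libraries, 8 residual degrees of freedom and a common biological coefficient of variation of 0.2405. A call was an adjusted p (Benjamini-Hochberg, 6127 genes) under 0.05. Intervals (95%) use the t quantile at the degrees of freedom of each gene's test. The spread behind each p is that of the samples labelled as biological replicates. In the main fit it was estimated jointly over all 4 media and moderated across genes. Each SE and p thus also carries the spread of media outside its comparison.

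The members and lists were chosen with earlier results of these data known. All 10 members were named; of each other list, the 3 called genes with the smallest p per comparison. Alternatives were DESeq2 1.42.0, 4 other scalings, other filters, a replicate block, the compared groups alone and leaving out each library. The fit was tested on simulated data.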

Additional observations from a re-analysis of the deposited data

Results flagged for a closer look

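The effect of potassium differed between glucose levels for VCX1, by a log2 value of 2.19 ± 0.42 (adjusted p = 0.00274 in edgeR): VCX1 was lower with low potassium in 3 of 3 libraries at 2% glucose and was not called at 0.5% glucose (0.53 ± 0.30), where it was higher by 1.02 and called (adjusted p = 0.000671 in edgeR) without low-glucose replicate 2. For PMR1 the same difference was 0.90 ± 0.22 (edgeR adjusted p = 0.00943), with 3 of 3 doubly restricted libraries above all low-glucose libraries and 3 of 3 low-potassium libraries below all full-medium libraries. Rows with WBGene identifiers, which were not tested and were used only for 1 alternative scaling, held a median of 36.2% of all counts per library; no group was a control for them and no table used here names them.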

How the results depend on the processing

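Of 70 member fold changes, the 32 with an edgeR adjusted p of 0.0977 or lower in the main fit were followed through 667 refits. Of these refits 547 kept the direction and side of the threshold, 84 lost a call, 35 gained one and 1 reversed. The reversal was the interaction of CCH1, not called at 0.47, which was -0.13 under scaling by WBGene rows. Losses could come only from the 22 called values. The other values were left out of these counts, though some of VCX1, CRZ1, RCN1 and CMP2 were called in an alternative. Scaling by WBGene rows moved the median of all genes to 0.30 for low potassium, 0.23 for low glucose and -0.34 for potassium at 0.5% glucose. It moved it to -0.45 for glucose at 1 mM potassium and -0.63 for the interaction. The share of calls that were higher went from 46.7% to 73.0% for low potassium and from 49.3% to 17.2% for the interaction.

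For low potassium, members called numbered 4, and 1 under library totals or WBGene scaling, where CMP2 was at -0.40 and -0.35 and CRZ1 at -0.47 and -0.42. For low glucose they numbered 5, but 3 under upper-quartile scaling, library totals or the replicate block and 2 under WBGene scaling or the compared groups alone. For potassium at 0.5% glucose they numbered 4, and 0 with the compared groups alone. For glucose at 1 mM potassium they numbered 3, but 5 under WBGene scaling and 1 with the replicate block. For the interaction they numbered 2, and 4 with DESeq2.

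With each library left out in turn, members called ranged from 1 to 5 for low potassium, 2 to 5 for low glucose, 3 to 5 for potassium at 0.5% glucose, 1 to 6 for glucose at 1 mM potassium, 3 to 6 for both restrictions, 0 to 1 between the single restrictions and 2 to 5 for the interaction. Genes called ranged over 1075 to 3111, 1455 to 2701, 2430 to 3565, 1667 to 3152, 2276 to 3986, 2070 to 2974 and 1362 to 2927 in the same order. The highest counts for low potassium and the interaction came without low-glucose replicate 2, and without full-medium replicate 1 low potassium gave 1087. With the compared groups alone the genes called numbered 3390 for low potassium (1719 in the main fit), 1805 for potassium at 0.5% glucose (2966) and 1462 between the single restrictions (2692), the last of which was 1687 under WBGene scaling. The causes were not tested.

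Replicate numbers gave no sign of pairing the samples. Over 18 pairs with the same number, the correlation of deviations ran from -0.366 to 0.328 and was over 0.1 in 3. The best match had the same number in 8 of 36 checks. With 3 libraries per group this check is weak and cannot exclude pairing. The replicate block left 3, 3, 4, 1, 3, 0 and 2 members called in the order above.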
